A study of Homo sapiens with 14 samples.

Results

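PDX1, SOX9, NKX6-1, NKX6-2, PTF1A, MNX1, PROX1 and GLIS3, 8 transcription factors known for their part in the early pancreas, were followed by symbol in a table of 59050 gene symbols. All 8 were found, and all 8 passed the filter on low counts in both assays. NKX6-1 in RNA and PTF1A in both assays passed it only through their PP2 counts, and not with DE and PP1 alone. The cells were HUES8, an established human embryonic stem cell line of wild-type genotype that had been differentiated, and every library came from that line. Libraries were made at definitive endoderm (DE), at an early pancreatic progenitor stage (PP1) and at a late pancreatic progenitor stage (PP2), to follow RNA levels and ribosome occupancy over the stages. RNA stands for sequencing of total RNA depleted of ribosomal RNA, and Ribo for sequencing of ribosome-bound RNA. In RNA and in Ribo alike, DE and PP1 had 2 libraries and PP2 had 3, which makes 14. The sources used here name no growth factors or days of differentiation, and undifferentiated cells were not analysed here. The labels do not say whether replicates came from separate cultures. The p-values set the difference between stages against the spread of libraries within a stage, and that spread may be only technical.

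In the embryo, the pancreas grows from a patch of foregut endoderm that switches on PDX1, the homeodomain factor without which no pancreas forms. SOX9, PTF1A, NKX6-1 and MNX1 act in the same buds: SOX9 keeps progenitors multipotent, PTF1A drives outgrowth and later the acinar programme, and NKX6-1 opposes PTF1A and marks the trunk cells that give rise to endocrine and duct cells. MNX1 is needed for the dorsal bud and again in beta cells, PROX1 is a homeodomain factor of foregut, liver and pancreas progenitors, GLIS3 is a zinc finger factor tied to neonatal diabetes, and NKX6-2 is the close paralog of NKX6-1.

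RefSeq promoter sequence (build GRCh38.p14) was matched for 3 of the 8 genes, with 5 start sites. The 250 bases before 1 start site of each gene are shown because NKX6-1 and MNX1 RNA rose from PP1 to PP2 and GLIS3 RNA rose from DE to PP1. The NKX6-1 window was chr4:84499293-84499542, the MNX1 window chr7:157010664-157010913 and the GLIS3 window chr9:4298497-4298746, all on the minus strand and written 5′ to 3′. For NKX6-1 and MNX1 the start is the outermost of the gene, and for GLIS3 it is an internal one. Capitals mark matches, on either strand, to 8 motifs: the CCAAT box, the TATA box as TATAAA, the homeodomain core TAATTA, the octamer ATGCAAAT, the CREB core TGACGT, the forkhead core TGTTTAC, the GATA core AGATAA and the E-box CAGGTG. None of these overlaps another in the windows shown.
NKX6-1: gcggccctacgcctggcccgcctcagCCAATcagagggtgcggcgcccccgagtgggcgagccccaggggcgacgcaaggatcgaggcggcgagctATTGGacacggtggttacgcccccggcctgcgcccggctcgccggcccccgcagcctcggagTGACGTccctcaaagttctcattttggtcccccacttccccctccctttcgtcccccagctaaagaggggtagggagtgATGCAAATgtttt
MNX1: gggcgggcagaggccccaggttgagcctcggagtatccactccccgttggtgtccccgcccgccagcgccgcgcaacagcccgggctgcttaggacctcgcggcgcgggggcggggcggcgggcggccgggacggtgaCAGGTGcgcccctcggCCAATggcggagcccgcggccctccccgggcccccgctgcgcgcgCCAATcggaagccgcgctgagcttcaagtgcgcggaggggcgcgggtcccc
GLIS3: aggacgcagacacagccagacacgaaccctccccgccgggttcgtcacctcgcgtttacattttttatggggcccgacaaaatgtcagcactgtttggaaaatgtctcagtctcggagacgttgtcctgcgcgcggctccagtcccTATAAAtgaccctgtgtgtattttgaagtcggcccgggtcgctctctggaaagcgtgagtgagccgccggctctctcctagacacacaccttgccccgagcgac
In the NKX6-1 window, CCAAT began 224 bases before the start and lay on the other strand at 154 bases, TGACGT at 92 bases and ATGCAAAT at 13 bases before it. In the MNX1 window, CAGGTG began 112 bases before the start, and CCAAT began at 96 and at 51 bases. The GLIS3 window held TATAAA at 104 bases. Of 35116 RefSeq windows of the same length, 32.0% held CCAAT, 17.5% CAGGTG, 10.7% TATAAA, 7.1% TGACGT and 1.63% ATGCAAAT. The homeodomain core (4.35% of all windows), the forkhead core (2.98%) and the GATA core (9.17%) were not in these 3 windows. GC content was 67.6% for NKX6-1, 78.8% for MNX1 and 57.6% for GLIS3, against a median of 58.0% over all windows. A match describes the letters and is not a measured binding site.

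RNA libraries held 15107847 to 21009065 counts and Ribo libraries 4710335 to 24186949. Protein-coding genes took 87.3% to 90.3% of RNA counts, but in Ribo 27.1% to 33.0% at DE and PP1 and 91.5%, 42.6% and 77.5% in PP2 replicates 1, 2 and 3. RNA PP2 replicate 3 stood apart in its mitochondrially encoded coding genes, at 0.9502% of counts against 3.34% and 3.74% in the other PP2 libraries. Counts called are given below with and without these libraries for the factors and, in part, for the lists. Markers of DE summed to 6393 to 6776 CPM (read counts scaled to a common library size) in RNA at DE, 325.8 to 369.1 at PP1 and 115.7 to 252.8 at PP2. Over 8 hepatic markers the sums were 16.6 to 18.7 CPM at DE, 13280 to 14300 at PP1 and 4790 to 7322 at PP2, so liver markers were abundant in the libraries labelled as pancreatic progenitors. Their part in the results below was not tested.

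PDX1 was not counted at DE and was present at PP1 and PP2. In RNA, where CPM is taken over library sizes scaled by trimmed mean of M-values, its level was 0 and 0 CPM at DE, 64.0 and 58.2 at PP1, and 212, 198 and 42.1 at PP2. The stages did not overlap between DE and PP1, and at PP2 replicates 1 and 2 were above PP1 while replicate 3 was below it. A count of 0 over both DE libraries allows up to 0.0941 CPM in RNA and 0.269 CPM in Ribo, limits that cover counting error only. Against that limit, PDX1 RNA was at least 645-fold higher at PP1 (edgeR quasi-likelihood test, Benjamini-Hochberg adjusted p = 9.2e-04). In bulk libraries such a rise cannot tell more PDX1 cells from more PDX1 RNA per cell. From PP1 to PP2 the RNA difference was 1.30 ± 0.59 log2 units (± standard error of the fit, edgeR adjusted p = 0.187) and did not pass. Without RNA PP2 replicate 3 it was 1.75 and passed (edgeR adjusted p = 3.9e-11). With all libraries kept, it passed with no filter on low counts (1.31, edgeR adjusted p = 6.8e-06) and in limma voom (1.70, adjusted p = 2.1e-05).

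PDX1 in Ribo was 0 and 0 CPM at DE, 20.7 and 17.7 at PP1, and 83.9, 67.4 and 60.5 at PP2. These 3 stages did not overlap, and the 3 PP2 libraries lay closer together than in RNA. PDX1 Ribo was at least 71.7-fold higher at PP1 than the limit at DE (edgeR adjusted p = 1.9e-04) and rose by a further 1.88 ± 0.33 log2 units from PP1 to PP2 (edgeR adjusted p = 0.0174). The second rise did not pass when Ribo PP1 replicate 1 (0.195) or 2 (0.202) or PP2 replicate 3 (0.0503) was left out.

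SOX9, the SRY-box factor of progenitors and ducts, went up together with PDX1. SOX9 RNA was 1.07 and 1.73 CPM at DE, 128.6 and 153.6 at PP1, and 511, 521 and 100.4 at PP2. DE stayed below PP1 in every library, and PP2 replicate 3 again lay below PP1 while the other two PP2 libraries were above it. SOX9 RNA rose by 6.66 ± 0.74 log2 units from DE to PP1 (edgeR adjusted p = 8.7e-04). The later difference of 1.42 ± 0.58 did not pass (edgeR adjusted p = 0.145) and was 1.88 without RNA PP2 replicate 3 (adjusted p = 1.3e-11). With all libraries kept, it passed with no filter on low counts (edgeR, 6.7e-07), in DESeq2 (0.043) and in limma voom (1.4e-05). In Ribo, SOX9 was 9.04 and 4.53 CPM at DE, 79.1 and 83.9 at PP1, and 385, 291 and 258 at PP2, with no overlap between stages. SOX9 Ribo rose by 3.58 ± 0.46 log2 units to PP1 (edgeR adjusted p = 0.00133) and by 1.93 ± 0.40 from PP1 to PP2 (adjusted p = 0.0287). The second rise did not pass without Ribo DE replicate 1 (0.0515) or 2 (0.0505), PP1 replicate 1 (0.313) or 2 (0.249), or PP2 replicate 3 (0.0619), nor when only the stages compared entered the fit (0.0529). SOX9 is also a cartilage gene: 10 cartilage and mesenchyme markers summed to 255 to 273 CPM in RNA at DE, 524 to 599.9 at PP1 and 870.8 to 1394 at PP2, and their part in the SOX9 values was not tested.

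**Figure D1:**
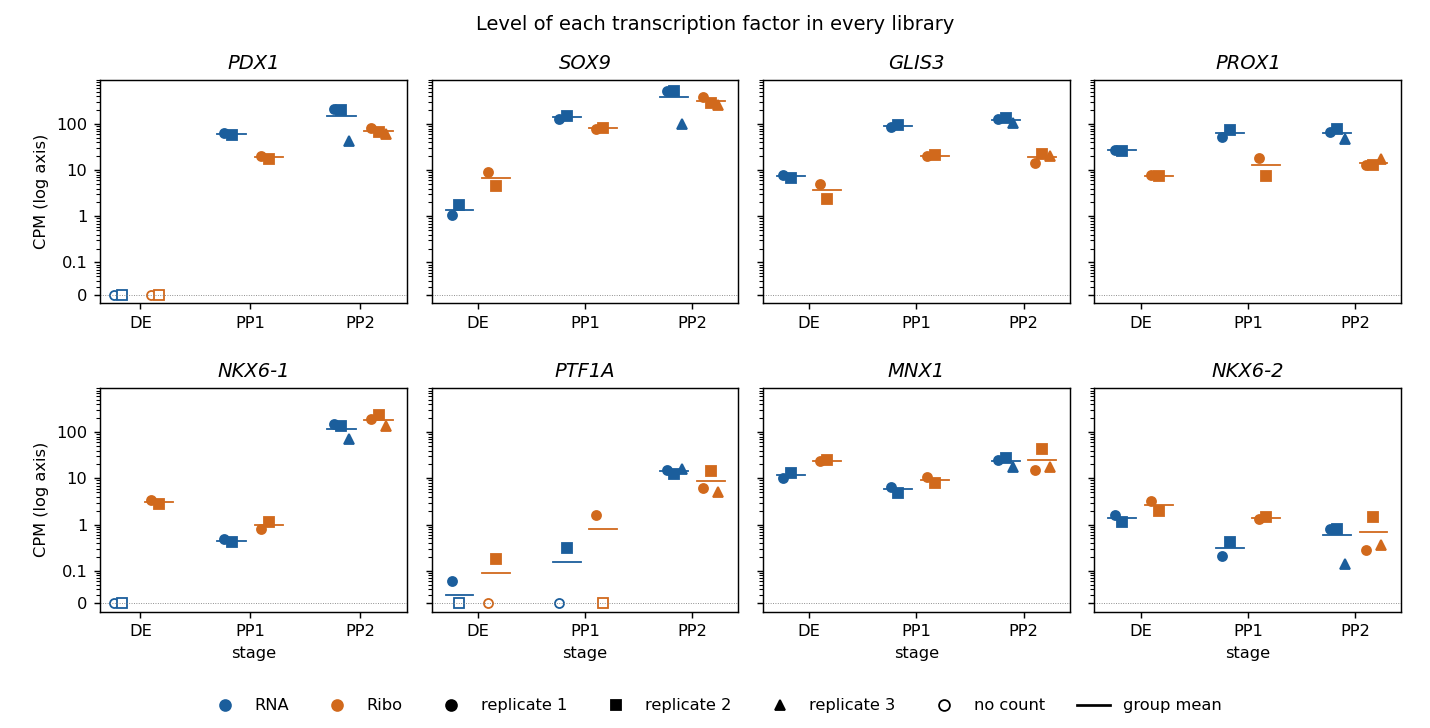
CPM (log axis, with 0 drawn at the bottom) of each transcription factor in every RNA and Ribo library by stage, with open symbols for no count and lines for group means. PDX1 and SOX9 were high from PP1, NKX6-1 and PTF1A were high only in the PP2 libraries, and RNA PP2 replicate 3 lay below the PP1 libraries for PDX1 and SOX9.

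GLIS3 and PROX1, which were already counted in every DE library, rose mainly between DE and PP1 in RNA. GLIS3 RNA was 7.95 and 6.78 CPM at DE, 87.1 and 96.9 at PP1, and 132, 134 and 108 at PP2. The stages did not overlap, PP2 included. GLIS3 RNA rose by 3.64 ± 0.20 log2 units from DE to PP1 (edgeR adjusted p = 2.8e-05). The further 0.44 ± 0.18 at PP2 did not pass (edgeR adjusted p = 0.13). It passed without RNA PP2 replicate 3 (0.54, edgeR adjusted p = 1.2e-04) and in limma voom (0.52, adjusted p = 0.00121). GLIS3 Ribo was 4.96 and 2.35 CPM at DE, 20.2 and 20.9 at PP1, and 14.4, 22.4 and 20.2 at PP2, so PP1 and PP2 overlapped. It rose by 2.48 ± 0.47 to PP1 (edgeR adjusted p = 0.0104), a call lost without Ribo DE replicate 2 (0.0857) or PP1 replicate 2 (0.0563), and differed by -0.12 ± 0.40 between PP2 and PP1 (adjusted p = 0.902).

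PROX1 RNA was 28.0 and 26.2 CPM at DE, 53.0 and 73.9 at PP1, and 66.2, 79.1 and 47.2 at PP2. DE was the lowest stage, and PP1 and PP2 overlapped. PROX1 RNA rose by 1.23 ± 0.27 log2 units from DE to PP1 (edgeR adjusted p = 0.0138) and differed by 0.02 ± 0.25 from PP1 to PP2 (adjusted p = 0.977). The rise did not pass without RNA DE replicate 1 (0.0925), DE replicate 2 (0.115) or PP1 replicate 2 (0.115). PROX1 Ribo was 7.80 and 7.43 CPM at DE, 18.0 and 7.55 at PP1, and 13.2, 13.1 and 17.7 at PP2, and neither step passed (edgeR adjusted p = 0.409 and 0.837). PROX1 is also the master factor of lymphatic endothelium: 6 lymphatic and blood endothelial markers summed to 69.3 to 79.9 CPM in RNA at DE, 17.3 at PP1 and 41.4 to 58.4 at PP2, where LYVE1 had no count. The sum was mostly KDR, PDPN and FLT4, while PECAM1 had means of 0.558, 1.93 and 5.15 CPM and CDH5 of 0.456, 0.912 and 4.09 CPM at DE, PP1 and PP2, and their part in the PROX1 values was not tested.

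NKX6-1, the trunk and beta cell homeodomain factor, appeared between PP1 and PP2. NKX6-1 RNA had no count at DE, was 0.480 and 0.416 CPM at PP1 from 7 and 8 counts, and was 150.4, 134 and 71.4 CPM at PP2 from 2883, 2619 and 1549 counts. All 3 PP2 libraries, replicate 3 included, lay far above the PP1 libraries, with no overlap. NKX6-1 RNA rose by 8.04 ± 0.49 log2 units from PP1 to PP2 (edgeR adjusted p = 2.4e-04). The step before it was at least 4.71-fold against the limit at DE (edgeR adjusted p = 0.0237), and did not pass without RNA DE replicate 1 (0.0867) or 2 (0.0763) or PP1 replicate 1 (0.0712) or 2 (0.0667). With only DE and PP1 in the fit, NKX6-1 RNA did not reach the filter and this step was not tested. In Ribo, NKX6-1 was 3.37 and 2.72 CPM at DE, 0.807 and 1.16 at PP1, and 190.4, 240.4 and 134.1 at PP2. PP2 stood far above both earlier stages, and DE stood above PP1 without passing (-1.62 ± 0.61 for PP1 against DE, adjusted p = 0.124). NKX6-1 Ribo rose by 7.57 ± 0.55 log2 units from PP1 to PP2 (edgeR adjusted p = 2.4e-04).

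PTF1A, the basic helix-loop-helix factor of early and acinar pancreas, was at the limit of detection until PP2. PTF1A RNA counts were 1 and 0 at DE, 0 and 6 at PP1, and 284, 250 and 343 at PP2, or 14.8, 12.8 and 15.8 CPM at PP2. Here replicate 3 was the highest PP2 library. PTF1A RNA rose by 6.32 ± 0.76 log2 units from PP1 to PP2 (edgeR adjusted p = 6.1e-04), while the ratio of PP1 to DE was 5.66 with an exact 95% counting interval of 0.686 to 260.2 (edgeR adjusted p = 0.291). PTF1A Ribo counts were 0 and 1 at DE, 6 and 0 at PP1, and 249, 110 and 71 at PP2, or 6.33, 14.2 and 5.13 CPM at PP2. Every PP2 Ribo library was above every earlier one, but the difference of 3.35 ± 1.06 log2 units from PP1 did not pass (edgeR adjusted p = 0.0963). It passed with no filter on low counts (0.00286), in DESeq2 (0.0164), in limma voom (0.011) and with only Ribo PP2 library 2 kept at PP2 (0.0335).

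MNX1, a homeodomain factor of the dorsal bud and of motor neurons, dipped at PP1. MNX1 RNA was 10.3 and 13.3 CPM at DE, 6.58 and 4.94 at PP1, and 25.5, 27.2 and 17.9 at PP2. PP1 was the lowest and PP2 the highest stage, with no overlap. MNX1 RNA fell by 1.04 on the log2 scale from DE to PP1 (standard error 0.28, edgeR adjusted p = 0.0302) and rose by 2.03 ± 0.26 from PP1 to PP2 (adjusted p = 0.00225). The fall did not pass without RNA DE replicate 1 (0.0733) or 2 (0.187) or PP1 replicate 1 (0.0789) or 2 (0.197). MNX1 Ribo was 23.6 and 24.99 CPM at DE, 10.49 and 8.13 at PP1, and 14.9, 43.5 and 17.4 at PP2. PP1 was again the lowest stage, PP2 replicate 2 the highest library, and neither the difference of -1.38 ± 0.53 to PP1 nor that of 1.43 ± 0.49 to PP2 passed (edgeR adjusted p = 0.157 and 0.124). The first passed without Ribo PP2 replicate 2 (0.0265), when only the stages compared entered the fit (0.0148), in limma voom (0.0268) and with only Ribo PP2 library 2 kept at PP2 (0.0124), and the second with no filter on low counts (0.0223) and with only library 2 kept (0.00195). Markers of motor neurons, 5 in all, summed to 5.10 to 5.58 CPM in RNA at DE, 6.13 to 7.06 at PP1 and 8.98 to 9.40 at PP2, where CHAT had no count, and their part in the MNX1 values was not tested.

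NKX6-2, in contrast to its paralog, was scarce at every stage. NKX6-2 RNA was 1.602 and 1.13 CPM at DE, 0.206 and 0.416 at PP1, and 0.783, 0.816 and 0.138 at PP2, from 3 to 27 counts a library. DE was above both later stages. The PP1 minus DE difference of -2.08 ± 0.83 log2 units did not pass (edgeR adjusted p = 0.1), though it did without RNA PP2 replicate 3 (0.0068), with no filter on low counts (0.0233), in limma voom (0.013) and when only the stages compared entered the fit (0.00691). NKX6-2 Ribo was 3.19 and 1.99 CPM at DE, 1.35 and 1.45 at PP1, and 0.280, 1.42 and 0.361 at PP2, and neither step passed (edgeR adjusted p = 0.698 and 0.577). NKX6-2 was at least 1 CPM in both DE RNA libraries and under 1 CPM in all 3 PP2 RNA libraries, where NKX6-1 was at least 71.4.

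In RNA, 5 of the 8 factors rose and 1 fell from DE to PP1, where 24.3% of the 24603 genes tested were called, 12.3% higher and 12.0% lower. NKX6-1, 1 of the 5, was tested there only because its PP2 counts reached the filter. Without RNA PP2 replicate 3, 5 factors rose and 2 fell from DE to PP1, against 49.8% of genes called. From PP1 to PP2, 3 of 8 rose (NKX6-1, PTF1A and MNX1), against 18.4% of genes called, 7.80% higher and 10.6% lower. Without RNA PP2 replicate 3, 6 of 8 rose from PP1 to PP2, but the share of all genes called was then 41.4%. Over the whole interval from DE to PP2, 7 of 8 rose, NKX6-2 being the exception, against 33.5% of genes called, 16.4% higher and 17.1% lower (again 7 without RNA PP2 replicate 3, against 52.5%). In Ribo, 3 of 8 rose from DE to PP1 (7.53% of 15067 genes called, 4.52% higher and 3.01% lower). At the next step, 3 of 8 rose in Ribo (5.01% called, 2.16% higher and 2.85% lower), and from DE to PP2, 5 of 8 did (27.6% called, 13.1% higher and 14.5% lower). The 3 that rose from PP1 to PP2 in Ribo were PDX1, SOX9 and NKX6-1. With only Ribo PP2 library 2 kept at PP2, 3 of 8 rose and 1 fell from DE to PP1 (17.8% of genes called), 5 rose from PP1 to PP2 (4.54%) and 5 from DE to PP2 (14.2%), where the spread of the single PP2 library had to be taken from the other stages. The median difference of the 8 factors was 2.94 log2 units in RNA from DE to PP1 (2.37 with genes of few counts at their bound or count ratio) and 1.36 from PP1 to PP2, where the median of all genes tested was 0.01 at each step. In Ribo the medians of the 8 were 1.62 and 1.65, against -0.04 and 0.04 over all genes tested. The 8 were chosen with earlier results of these data known, so setting them against all genes describes them and is not a test.

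**Figure D2:**
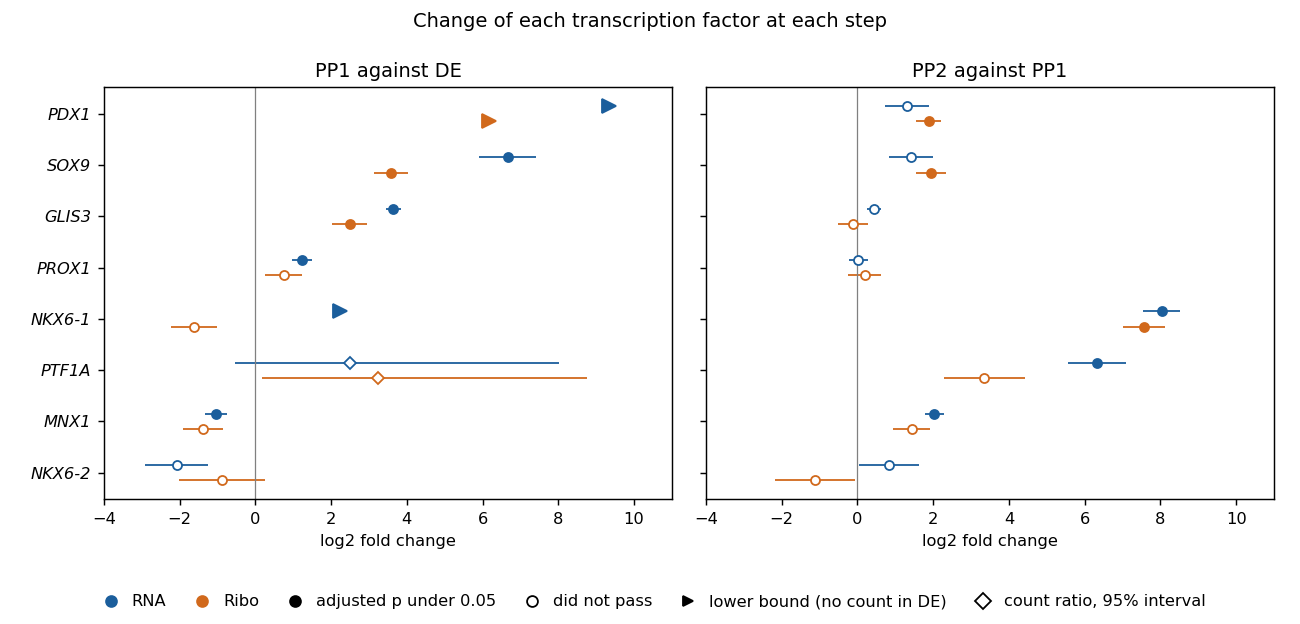
Log2 fold change of each transcription factor at each step in RNA and Ribo, with bars of ± 1 standard error, arrowheads for lower bounds against a stage with no count, and diamonds for PTF1A count ratios with exact 95% intervals. PDX1, SOX9 and GLIS3 passed the test in both assays from DE to PP1, and NKX6-1 in both assays from PP1 to PP2.

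From DE to PP2, the lower bounds were 1558-fold for PDX1 RNA and 1240-fold for NKX6-1 RNA. PTF1A RNA was 463-fold higher at PP2 than at DE by count ratio, with an exact 95% interval of 82.8 to 18300 (edgeR adjusted p = 1e-04). SOX9 RNA rose by 8.08 ± 0.70 log2 units and GLIS3 RNA by 4.08 ± 0.19 (edgeR adjusted p = 8.3e-06 for GLIS3). MNX1 RNA rose by 0.99 ± 0.25 (edgeR adjusted p = 0.0184), and not without RNA DE replicate 1 (0.162), DE replicate 2 (0.0684) or PP2 replicate 2 (0.05). PROX1 RNA rose by 1.24 ± 0.25 (adjusted p = 0.00736), and not without RNA DE replicate 1 (0.0623) or DE replicate 2 (0.0812). These values share their DE and PP2 libraries with the 2 steps above. In Ribo, MNX1 at PP2 differed from DE by 0.05 ± 0.46 (edgeR adjusted p = 0.948), and PTF1A passed at 78.8-fold (exact 95% interval 14.06 to 3119, edgeR adjusted p = 0.00787), though not without Ribo DE replicate 1 (0.0517).

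Levels of different genes were set side by side per kilobase of counted gene length. At PP2 the RNA level was 96.1 ± 61.1 CPM per kilobase for SOX9 (mean ± SD, n = 3 here and for the next values), 57.9 ± 36.3 for PDX1 and 38.4 ± 13.5 for NKX6-1. GLIS3 at 10.4 ± 1.21, PTF1A at 8.88 ± 0.957, PROX1 at 7.19 ± 1.79 and MNX1 at 5.58 ± 1.17 formed a second tier, and NKX6-2 was last at 0.209 ± 0.138. Neighbours in this order overlapped between libraries except NKX6-1 with GLIS3 and MNX1 with NKX6-2. In Ribo the order at the top changed: SOX9 was at 79.2 ± 16.8 CPM per kilobase, NKX6-1 at 61.0 ± 17.2 and PDX1 at 27.1 ± 4.61, and NKX6-1 and PDX1 did not overlap. Then came MNX1 at 5.99 ± 3.76, PTF1A at 5.26 ± 3.04, PROX1 at 1.64 ± 0.295, GLIS3 at 1.59 ± 0.344 and NKX6-2 at 0.249 ± 0.231. GLIS3, the fourth in RNA, was thus the seventh in Ribo. The sources used here do not say over which part of a gene Ribo reads were counted, which bears on any Ribo level per kilobase.

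The PP2 libraries did not agree on the 8 factors. In RNA, replicate 3 was at 0.205 of the mean of replicates 1 and 2 for PDX1, 0.194 for SOX9 and 0.173 for NKX6-2, and at 0.503 for NKX6-1. PROX1, MNX1 and GLIS3 were at 0.65, 0.681 and 0.812 of it, and PTF1A at 1.15. So 3 of 8 factors in that library lay under 1/2 of the other PP2 libraries, where 18.6% of 24313 genes did. In Ribo PP2 replicate 3 the ratios for PDX1 and SOX9 were 0.8 and 0.763, and PTF1A (0.499) and NKX6-2 (0.424) lay under 1/2 (13.0% of genes did). Ribo PP2 replicate 2 was the high library for MNX1 (2.7), PTF1A (2.49) and NKX6-2 (4.45), where 20.1% of genes were over 2 times the other PP2 libraries. Ribo PP2 replicate 1 lay under 1/2 for MNX1 (0.488) and NKX6-2 (0.313), as 22.5% of genes did. The low PDX1 and SOX9 values of RNA PP2 replicate 3 therefore had no counterpart of that size in any Ribo library, and the numbers of RNA and Ribo replicates were not shown to mark shared cultures.

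**Figure D3:**
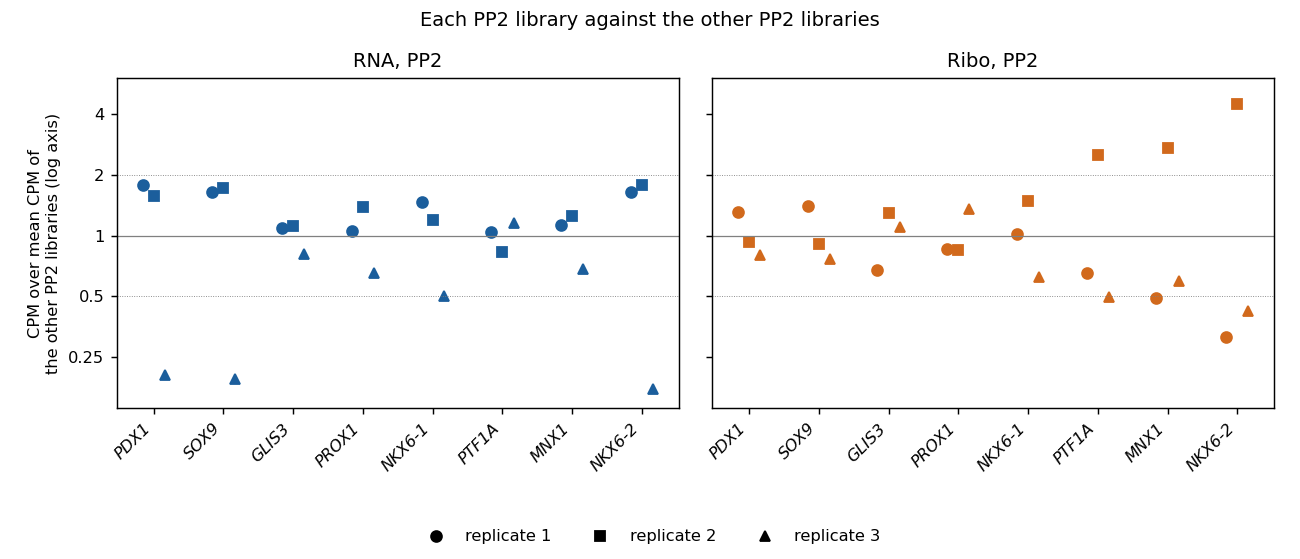
CPM of each PP2 library over the mean CPM of the other PP2 libraries of its assay (log axis), per transcription factor, with dotted lines at 0.5 and 2. RNA replicate 3 sits at 0.173 to 0.205 for PDX1, SOX9 and NKX6-2 and above 1 for PTF1A, and Ribo replicate 2 sits above 2 for PTF1A, MNX1 and NKX6-2.

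The ratio of Ribo to RNA CPM separated the factors. At PP2 the log2 ratio was 0.67 for NKX6-1 (percentile 91.2 among 14079 genes, whose median was -0.98), 0.25 for NKX6-2 (85.0), 0.10 for MNX1 (82.1) and -0.28 for SOX9 (72.5). PTF1A at -0.76 (57.4) and PDX1 at -1.09 (46.0) lay near the median. PROX1 at -2.13 (16.7) and GLIS3 at -2.72 (7.91), the factors with the longest counted models (8928 and 11978 bases), lay at the low end, and the part of length in this was not tested. At PP1 the highest was PTF1A at 2.37 (percentile 97.9 of 14026 genes, median -1.17), then NKX6-2 at 2.17 (97.6) and NKX6-1 at 1.14 (94.7), each with 0 to 8 counts in every PP1 library of both assays. MNX1 stood at 0.69 (91.8), SOX9 at -0.79 (62.8) and PDX1 at -1.67 (31.9), and GLIS3 at -2.16 (17.6) and PROX1 at -2.31 (14.4) were again the lowest. At DE, SOX9 had a log2 ratio of 2.28 (percentile 96.7 of 13955 genes, median -1.09) from 51 and 25 Ribo counts and 18 and 26 RNA counts, and GLIS3 one of -1.01 (52.3).

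**Figure D4:**
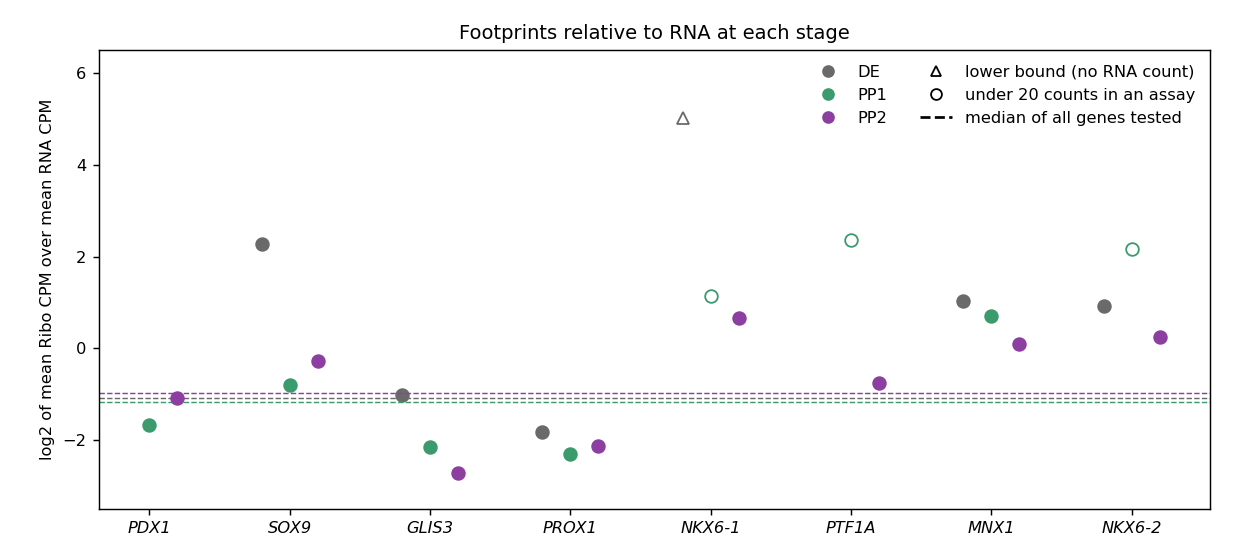
Log2 of mean Ribo CPM over mean RNA CPM for each transcription factor at DE, PP1 and PP2, with dashed lines for the median of all genes tested at each stage; PDX1 and PTF1A have no point at DE. At PP2, NKX6-1 (0.67) is the highest and GLIS3 (-2.72) the lowest, and the triangle is the lower bound of NKX6-1 at DE (5.02).

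Translation efficiency (TE) is the Ribo level of a gene relative to its RNA level. Its change, which is how much more a gene changed in Ribo than in RNA on the log2 scale, was tested as an interaction in 1 fit of all 14 libraries. NKX6-1 had 19 and 15 Ribo counts at DE and no RNA count, a log2 ratio of at least 5.02. Its TE fell at both intervals that start at DE: the change was -3.86 or lower to PP1 (edgeR adjusted p = 0.0443) and -4.33 or lower to PP2 (edgeR adjusted p = 0.00287). Both bounds take the later RNA counts and the fitted Ribo change as exact. To PP1 that Ribo change was -1.62 ± 0.61. NKX6-1 was the 1 of 8 factors to pass from DE to PP1, where 0.290% of 14152 genes were called, 0.0848% higher and 0.205% lower. That call was lost on leaving out RNA DE replicate 1 (0.264) or 2 (0.205), RNA PP1 replicate 1 (0.135) or 2 (0.141), RNA PP2 replicate 2 (0.0636), Ribo DE replicate 1 (0.075) or 2 (0.0666), or Ribo PP1 replicate 1 (0.157) or 2 (0.11). NKX6-1 RNA reached the filter only through its PP2 counts, and with only DE and PP1 in the fit its TE was not tested. Ribo counts without RNA counts at DE were seen in other genes too: of 22262 genes with no RNA count at DE, 238 had at least 15 Ribo counts in each DE library, 53 of them protein-coding. NKX6-1 was the 1 gene of those 53 with at least 100 RNA counts in each PP2 library. The cut of 15 was the lower NKX6-1 Ribo count at DE, and its PP2 RNA counts lay far above 100. Its place among these genes was therefore set by the cuts and is not a test.

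From DE to PP2, 2 of 8 factors passed, NKX6-1 and GLIS3, and both fell, where 7.04% of genes were called, 3.33% higher and 3.71% lower. GLIS3 TE fell by 1.72 on the log2 scale (standard error 0.44, edgeR adjusted p = 0.036), as its RNA rose by 4.08 and its Ribo by 2.37 ± 0.43. The GLIS3 call was lost on leaving out RNA DE replicate 1 (0.132) or 2 (0.166), RNA PP1 replicate 1 (0.0631) or 2 (0.0638), RNA PP2 replicate 1 (0.0714) or 2 (0.0654), Ribo DE replicate 1 (-1.01 log2 units, 0.211), Ribo PP1 replicate 1 (0.052) or 2 (0.0516), or Ribo PP2 replicate 1 (0.0542) or 3 (0.0614). SOX9 TE differed by -3.07 ± 0.86 from DE to PP1 (edgeR adjusted p = 0.205) and by -2.56 ± 0.80 from DE to PP2 (adjusted p = 0.062). Neither SOX9 value passed, and both did without RNA PP2 replicate 3 (0.0174 and 0.00631). From DE to PP1 SOX9 TE also passed with no filter (0.0489), in DESeq2 (0.027), voom (0.015) and with only the stages compared (0.00384). From DE to PP2 it passed with no filter (0.0367), in DESeq2 (0.0124), voom (0.00164) and without Ribo PP2 replicate 2 (0.0455). From PP1 to PP2 none of the 8 passed in edgeR (0.0777% of genes called, 0.00707% higher and 0.0707% lower), none had an unadjusted p under 0.05, DESeq2 called 0 and limma voom called 1, NKX6-2 at -3.12 (adjusted p = 0.0303).

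Long noncoding RNAs beside the factors were counted as well. SOX9-AS1, whose RefSeq span lies 227 bases from SOX9, had RNA levels of 0.119 and 0 CPM at DE, 2.40 and 1.77 at PP1, and 22.2, 24.4 and 27.7 at PP2. It was highest in RNA PP2 replicate 3, the library in which SOX9 was low. SOX9-AS1 RNA rose 32.5-fold by count ratio from DE to PP1 (exact 95% interval 8.67 to 274, edgeR adjusted p = 7.3e-04) and by 3.58 ± 0.30 log2 units to PP2 (edgeR adjusted p = 4.9e-04), and its Ribo level passed at neither step (0.455 and 0.926). PLUT, an antisense gene 2709 bases from PDX1 that was added after its values were seen, had 0 and 0 RNA counts at DE, 9 and 17 at PP1 and 47, 43 and 43 at PP2. It rose at least 8.17-fold to PP1 (edgeR adjusted p = 0.00306) and by 1.53 ± 0.39 log2 units to PP2 (adjusted p = 0.0371), with no drop in RNA PP2 replicate 3. MNX1-AS2, GLIS3-AS1 and PROX1-AS1 overlap MNX1, GLIS3 and PROX1, and with the strand setting not given their reads cannot be told apart from those of the sense genes. They had 5 to 45 RNA counts a library, and neither they nor MNX1-AS1, which lies 194 bases from MNX1, passed in RNA at any comparison.

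Of the 6 paralogs of the factors, SOX8, SOX10 and GLIS1 fell in RNA from DE to PP1, where SOX9 and GLIS3 rose. SOX10, the neural crest relative of SOX9, was at 18.9 and 22.0 CPM in RNA at DE and 1.17 and 1.46 at PP1, and fell by 3.95 on the log2 scale (standard error 0.61, edgeR adjusted p = 0.00274) as SOX9 rose. SOX8 RNA fell by 1.599 from DE to PP1 (edgeR adjusted p = 0.00669) and rose by 1.35 ± 0.28 to PP2 (adjusted p = 0.0155). GLIS1 RNA fell by 2.19 from DE to PP1 (edgeR adjusted p = 0.0119), where GLIS3 rose, and then 46.5-fold by count ratio (exact 95% interval 7.63 to 1905, adjusted p = 0.00369), with 1 count left over the 3 PP2 libraries. GLIS1 was another gene with more Ribo than RNA at DE, at 76.6 and 108.5 CPM in Ribo against 3.68 and 3.46 in RNA. GLIS2 passed at neither step in RNA (edgeR adjusted p = 0.704 and 0.603). PROX2 RNA rose by 1.25 ± 0.36 from DE to PP1 (edgeR adjusted p = 0.0372) beside 1.23 for PROX1. NKX6-3 had no RNA count at DE and PP1 and 5, 9 and 6 counts at PP2, too few to be tested.

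The genes closest to each factor over the 14 libraries were ranked by Pearson correlation of log2(CPM + 1), centred within each assay, over 14151 genes. These correlations describe 2 to 3 libraries a stage that share stage, line and depth, and carry no test. PDX1 and SOX9 were each other's closest gene (r = 0.994), followed for PDX1 by NHS (0.990), IGSF9 (0.987) and FOXJ1 (0.983). GLIS3 ranked 38 for SOX9 (0.948) and 73 for PDX1 (0.942), and its own closest genes were GRB14 (0.988), LINC00607 (0.985), ARHGEF28 (0.981) and the homeobox cofactor MEIS2 (0.981). For NKX6-1 the closest were SCNN1G (0.986), SOX3 (0.979) and SLC26A3 (0.977), and PTF1A ranked 31 (0.950). For PTF1A they were IGF2-AS (0.992), ACBD7 (0.976), COL28A1 (0.976) and FRMD6 (0.967). No gene reached such values for MNX1, led by MEX3B (0.922), or PROX1, led by STARD13 (0.917). NKX6-2 was led by CDK5R1 (0.952) and correlated negatively with PDX1 (-0.707) and NKX6-1 (-0.461).

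Of 21 other progenitor transcription factors, more were called in RNA from DE to PP1 than from PP1 to PP2 with all libraries kept. In all, 12 rose, 1 fell and 8 did not pass from DE to PP1 (24.3% of all genes called; 14 up and 2 down without RNA PP2 replicate 3, against 49.8%), with a list median of 1.58 log2 units (1.21 with genes of few counts at their bound). ONECUT2, a cut-homeobox factor of liver and pancreas, rose by 7.47 ± 0.22 and the Notch target HES1 by 6.45 ± 0.29, while the endoderm factor GATA6 fell by 1.59 (edgeR adjusted p = 8.8e-06, 1.3e-05 and 0.044). Between PP1 and PP2, 2 rose (MEIS1 by 1.66 ± 0.20 and RBPJ by 0.65 ± 0.18), 2 fell (ONECUT2 by 1.32 and FOXA3 by 1.08) and 17 did not pass (18.4% of all genes called). Without RNA PP2 replicate 3 that count was 6 up, 11 down and 4 not passed, against 41.4% of all genes called. In that setting 5 did not pass from DE to PP1, so the first step no longer held more calls. In Ribo, of 20 tested, 7 rose and 1 fell to PP1 (7.53% of all genes called), and 1 rose (MEIS1) and 1 fell (ONECUT2) to PP2 (5.01%). With only Ribo PP2 library 2 kept at PP2, 11 rose and 2 fell to PP1, against 17.8% of all genes called, and the counts to PP2 were again 1 and 1.

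Endocrine transcription factors, a list of 14 of which 11 were tested in RNA, mostly fell to PP1 and stayed low at PP2 apart from RFX6. From DE to PP1, 1 rose, 6 fell and 4 did not pass (median -2.01), where 24.3% of all genes were called and 12.0% were lower: RFX6, needed for islet formation, rose 1952-fold by count ratio (exact 95% interval 667.7 to 9469), and PAX6, ISL1, MYT1, MAFA, NKX2-2 and INSM1 fell. At the next step, 4 rose and 3 fell, against 18.4% of all genes called. Without RNA PP2 replicate 3, 10 were tested. Of them, 1 rose and 6 fell at the first step, against 49.8% of all genes called. At the second, 4 rose and 3 fell, against 41.4%. INSM1, ST18 and NKX2-2 rose 31.3-fold, 28.0-fold and 15.9-fold by count ratio and NEUROD1 at least 9.33-fold (edgeR adjusted p = 0.00431, 0.0246, 0.0151 and 0.0351), yet their mean levels at PP2 were 1.89, 0.819, 0.964 and 0.847 CPM. ST18 (0 RNA counts at DE and 1 at PP1) and NEUROD1 (0 at both) reached the filter on low counts only through PP2, the stage where they were high. RFX6 fell by 2.24 to 39.1 CPM. NEUROG3, the factor that commits progenitors to the endocrine fate, did not pass at either step, and PAX4 and FEV were among those with too few counts to be tested. In Ribo, 1 rose and 3 fell of 10 tested to PP1, against 7.53% of all genes called. RFX6 alone passed from PP1 to PP2, lower, against 5.01%.

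Of 13 acinar genes, 8 were tested in RNA, and 5 (CELA3A, CTRB1, CTRB2, PNLIP and AMY2A) had too few counts. Between PP1 and PP2, where PTF1A RNA rose, 4 acinar genes rose, 1 fell and 3 did not pass, against 18.4% of all genes called. The counts were 4 up and 3 down without RNA PP2 replicate 3, against 41.4%. CPA1, a carboxypeptidase gene that marks tip progenitors and acinar cells, rose 124-fold by count ratio (exact 95% interval 34.03 to 1024, edgeR adjusted p = 5e-04). CPA1 RNA, with 2 counts at DE and 2 at PP1, reached the filter on low counts only through PP2. SPINK1 rose by 2.41 ± 0.42 log2 units and GP2 by 2.15 ± 0.33, and the acinar factor gene BHLHA15 fell by 4.20. In Ribo, 3 of the 6 tested rose at the same step, against 5.01% of all genes called, among them CPA1 by 4.70 ± 0.92 and SPINK1 by 3.67 ± 0.58 (edgeR adjusted p = 0.0172 and 0.0178), and 3 did not pass. From DE to PP1, 4 of 8 acinar genes rose in RNA and none fell, with and without RNA PP2 replicate 3. Of all genes, 24.3% were called at that step with the library and 49.8% without it.

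Of 10 ductal genes, 4 rose, 1 fell and 5 did not pass in RNA from DE to PP1, where 24.3% of all genes were called. On leaving out RNA PP2 replicate 3, 6 rose and 1 fell, against 49.8%. The chloride channel gene CFTR rose by 5.23 ± 0.40 and ANXA4 by 4.59 ± 0.22 (edgeR adjusted p = 1.2e-04 and 1.9e-05), together with SOX9. At the second step 3 rose and 3 fell, against 18.4% of all genes called, and without RNA PP2 replicate 3 it was 3 and 5, against 41.4%. The bicarbonate transporter gene SLC4A4 rose by 4.54 ± 0.26 and SPP1 by 3.77 ± 0.82, while KRT7 fell by 4.54 and CFTR by 1.32. KRT19 did not pass at either step in RNA. In Ribo, SLC4A4 and SPP1 rose from PP1 to PP2 and 6 of the 8 tested did not pass, against 5.01% of all genes called. With only Ribo PP2 library 2 kept at PP2, 1 of the 8 rose, against 4.54% of all genes called.

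**Figure D5:**
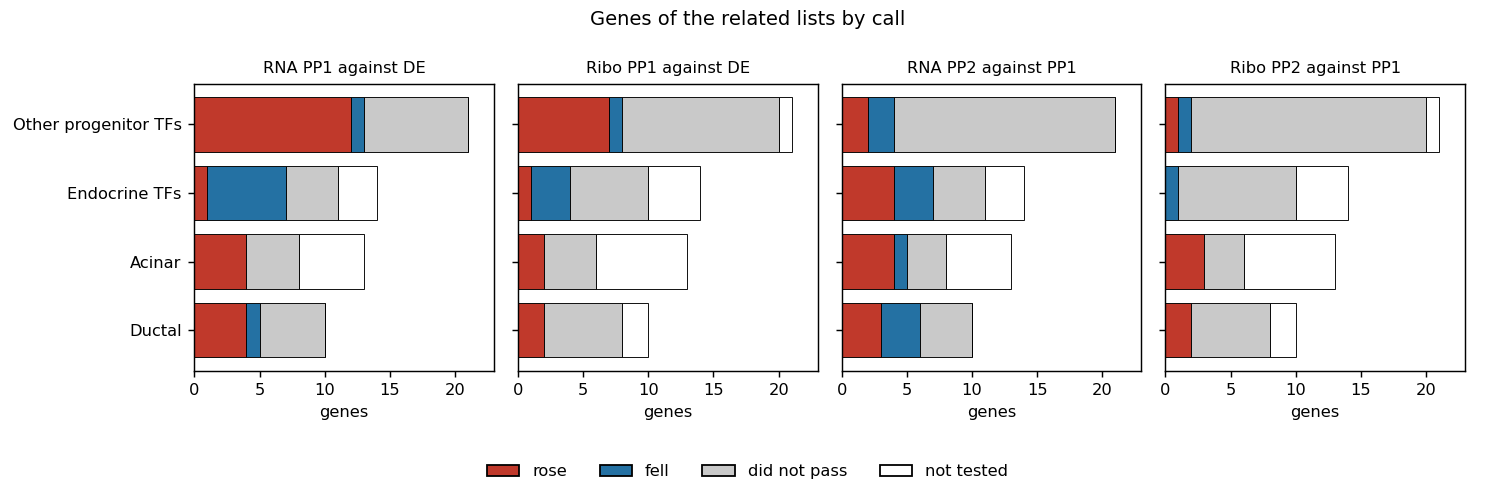
Number of genes in each related list that rose, fell, did not pass (adjusted p under 0.05) or were not tested, by assay and step. Of the other progenitor factors, 12 rose in RNA from DE to PP1 and 2 from PP1 to PP2, and of the acinar genes 3 rose in Ribo from PP1 to PP2.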

How the data were processed

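RNA and Ribo libraries of HUES8 cells at DE, PP1 and PP2 were analysed. The authors deposited 1 table of raw read counts per gene symbol and library, with the gene length in bases that was used per kilobase here. Per the submitters' processing notes, cutadapt 1.18, Bowtie 1.2, STAR 2.7.1a and featureCounts 1.6.4 were used with hg38. Strand setting, annotation release, counted feature type and the separate roles of Bowtie and STAR are each not given in the sources used here. Groups came from the labels' stage and assay.

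The 3 stages of each assay entered 1 fit in edgeR 4.0.16 under R 4.3.3, with filterByExpr, trimmed mean of M-values (TMM) scaling, quasi-likelihood F test, Benjamini-Hochberg adjustment over all genes tested, threshold 0.05. The change in TE was an interaction in 1 fit of 6 groups. A group with no count was given a bound at 3 counts over the group, and 1 to 3 counts an exact 95% count ratio. Intervals cover counting error only. A bound covers only the counting error of the group with no count, and takes the other values as exact. The fits were tested on simulated data. All factors were named, then the 4 nearest genes of each, antisense genes, paralogs and members of the lists. Some genes that this rule names are not reported here. The members and lists were chosen with earlier results of these data known. Alternatives were DESeq2 1.42.0 (size factors or Wald test), limma 3.58.1 voom, TMM without mitochondrial and structural RNA, no filter, only the stages compared, a replicate block, leaving out each library, and keeping only Ribo PP2 library 2 at PP2. Same-numbered libraries did not deviate together, so the numbers were not used as pairs.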

Additional observations from a re-analysis of the deposited data

Results flagged for a closer look

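NKX6-1 and GLIS3 changed differently in Ribo than in RNA by the interaction test in edgeR. For NKX6-1 the adjusted p was 0.0443 from DE to PP1 and 0.00287 from DE to PP2. From DE to PP1 its RNA rose at least 4.71-fold, with the PP1 counts taken as exact. Its Ribo difference of -1.62 log2 units did not pass there. NKX6-1 RNA reached the filter on low counts only through its PP2 libraries. For GLIS3 the adjusted p was 0.036 from DE to PP2, with a rise of 4.08 in RNA and 2.37 in Ribo. Groups held 2 or 3 libraries, so no single library was tested as an outlier.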

How the results depend on the processing

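Among the 1217 values of single factors under an alternative, 1096 kept their direction and side of the threshold, 42 passed where the reported value had not, 54 no longer passed, and 25 changed sign, none of them a value that passed. The count of factors called ranged on leaving out 1 library from 3 to 7 (6 reported) for RNA from DE to PP1, 3 to 6 (3) for RNA from PP1 to PP2, 5 to 7 (7) for RNA from DE to PP2, 2 to 4 (3) for Ribo from DE to PP1, 1 to 3 (3) for Ribo from PP1 to PP2, 4 to 6 (5) for Ribo from DE to PP2, and in TE 0 to 2 (1), 0 (0) and 1 to 4 (2) in the same order. The number of all genes called moved as well on leaving out 1 library. In RNA it ran from 2935 to 11997 (5979 reported), 1210 to 9984 (4533) and 4216 to 12649 (8240), in the same order. In Ribo it ran from 424 to 2228 (1135), 58 to 3474 (755) and 1788 to 6837 (4153). In TE it ran from 9 to 131 (41), 0 to 1285 (11) and 50 to 4048 (996). With no filter on low counts the count of factors was 5 for RNA and 5 for Ribo from PP1 to PP2 and 2 for TE from DE to PP1. With voom it was 6 for RNA from PP1 to PP2, and for TE 2 from DE to PP1, 1 from PP1 to PP2 and 4 from DE to PP2. DESeq2 called 2 for TE from DE to PP1. Only the stages compared in the fit gave 1 for TE from DE to PP2. With only Ribo PP2 library 2 kept it was 5 for Ribo from PP1 to PP2 and 1 for TE from DE to PP2. The replicate block gave 6 for RNA and 1 for Ribo from PP1 to PP2, where PDX1 (0.0675) and SOX9 (0.0857) did not pass, and 1 for TE from DE to PP2. The difference of replicate 1 from replicate 2 over genes was correlated between pairs of groups, within and between assays. Those correlations ran from -0.297 to 0.086. All genes called shifted as well over the settings other than leaving out 1 library. From PP1 to PP2 they ran from 3184 to 9758 in RNA and 201 to 4175 in Ribo. In TE they ran from 26 to 655 (DE to PP1), 0 to 2383 (PP1 to PP2) and 191 to 4459 (DE to PP2). The cause of these shifts was not tested.

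Sign changes, in log2 units, arose on leaving out 1 library, where values ranged from -2.45 to 4.72 for PTF1A RNA, -3.24 to 6.31 for PTF1A Ribo, -5.77 to 5.29 for PTF1A TE and -1.21 to 0.044 for PROX1 TE from DE to PP1. From PP1 to PP2 the ranges were -0.21 to 0.28 for PROX1 RNA, -0.23 to 1.02 for PROX1 Ribo, -0.23 to 0.049 for GLIS3 Ribo, -7.36 to 3.78 for PTF1A TE and -0.24 to 1.004 for PROX1 TE. Over DE to PP2 they were -0.56 to 0.32 for MNX1 Ribo and -4.28 to 1.53 for PTF1A TE. With voom, MNX1 Ribo from DE to PP2 was -0.36, and TE from PP1 to PP2 was -0.0008 for PDX1 and -0.093 for SOX9. GLIS3 Ribo from PP1 to PP2 was 0.041 without mitochondrial and structural RNA, 0.13 with no filter and 0.13 with only Ribo PP2 library 2 kept. That last setting also gave 0.029 for NKX6-2 Ribo and 0.19 for MNX1 TE from PP1 to PP2, and 0.43 for NKX6-2 TE from DE to PP2. In RNA 1 count was worth 0.0461 to 0.0685 CPM and in Ribo 0.0254 to 0.290 CPM.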
